A study of Danio rerio with 2 samples.

Results

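The loci described here are stretches of the zebrafish genome to which the deposited table gives expression values but no gene symbol. They were chosen by their FPKM level, a measure of fragments relative to the length of the transcript and the size of the library: a mean over the 2 pools of 1 FPKM or more, a locus longer than 1000 bases and no failed estimate. This left 2306 of the 40114 loci in the table. RNA was sequenced from homozygous lri12 mutant larvae and from their wild-type (WT) clutch-mates at 5 days post-fertilization (dpf), the stage at which a free-swimming larva starts to feed. Each pool, 1 per genotype, held 20 whole larvae grown at the same temperature. The labels name neither the gene that lri12 affects nor the kind of lesion, so no mutated gene was there to check the labels against. The design asks how expression differs between the genotypes. With 1 pool per genotype there was no replicate error and no test, and each difference below is between 2 libraries. In whole larvae, fewer cells of a type and less RNA per cell cannot be told apart.

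When RNA-seq reads are assembled against a genome annotation, fragments that fall outside the annotated genes form loci with no name. Such loci can be unannotated protein-coding genes, long non-coding RNAs, precursors of microRNAs, or pieces of a neighbouring gene such as an untranslated region that the annotation lacks. Early zebrafish assemblies such as Zv9, the build of these coordinates, had gaps and duplicated stretches, and many genes were annotated on them only later.

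Of 8509 loci without a symbol, none had a failed estimate and 4271 had a span over 1000 bases. Of the long loci, 1965 had a mean under 1 FPKM and stayed out, as did 2374 short loci with a mean of at least 1 FPKM. At the edge of the span limit, the shortest loci taken were XLOC_016739 on chromosome 2, at 1.41 FPKM in the lri12 mutant pool and 1.31 FPKM in the WT pool, and XLOC_026673 on chromosome 3, at 1.78 FPKM in mutant and 1.58 FPKM in WT, both 1001 bases long. XLOC_012467 on chromosome 17, with a span of 1000 bases and 1.12 FPKM in mutant against 1.75 FPKM in WT, lay just outside, and so did XLOC_014266 on chromosome 19, with 999 bases and 3.31 FPKM in mutant against 2.24 FPKM in WT. At the edge of the level limit, XLOC_001185 on chromosome 1 was taken at 1.29 FPKM in mutant and 0.705 FPKM in WT, and XLOC_012419 on chromosome 17 at 0.940 FPKM in mutant and 1.06 FPKM in WT. XLOC_035038 on chromosome 7 missed that limit at 0.370 FPKM in mutant and 1.63 FPKM in WT, as did XLOC_013560 on chromosome 18 at 1.03 FPKM in mutant and 0.969 FPKM in WT.

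The unnamed long loci were mostly low. Their levels chose them and are given as a description. The median of their mean levels was 2.51 FPKM, with quartiles of 1.53 and 5.47 FPKM, against 6.43 FPKM for the 18715 named loci that meet the same limits. A mean under 2 FPKM was held by 897 of them, at least 10 FPKM by 297, and over 100 FPKM by 24. All 2306 had a value above 0 in both pools. They held 2.60% of the summed FPKM in the mutant pool and 2.58% in the WT pool, and the 12 highest of them accounted for 38.2% of that part in mutant and 36.1% in WT. The pools resembled each other: the Pearson correlation of log2(FPKM + 1) across these loci was 0.975 over 2306 loci, which share the same 2 libraries and are not replicates. As a check of the labelled tissue, 33 of 40 listed markers of muscle, skin, eye, liver, pancreas, intestine, blood and neurons were found in the table, and all 33 had at least 1 FPKM in both pools.

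The highest unnamed locus was XLOC_035917, a stretch of chromosome 8 from 1383708 to 1386521 that stood at 1504.3 FPKM in mutant and 2263 FPKM in WT, a log2 difference of -0.59. All log2 differences here are log2((mutant FPKM + 1)/(WT FPKM + 1)), and folds are on the same scale, unless named as a plain ratio. Both understate the difference of low loci. Its nearest named locus, 15968 bases away, was FBXL17, an F-box protein gene, at 6.18 FPKM in mutant and 6.55 FPKM in WT. XLOC_005317 on chromosome 12 (46364089 to 46478132) had 1817 FPKM in mutant and 1020.05 FPKM in WT, but it shares these coordinates with 6 other rows, between which the authors' program had to divide the reads. XLOC_015147 on chromosome 2 (54042 to 55963) had 1246 FPKM in mutant and 986 FPKM in WT and starts 138 bases past a locus with a clone-based symbol, CABZ01090951.1, which stood at only 5.20 FPKM in mutant and 5.34 FPKM in WT. XLOC_024230 on chromosome 25 (6383950 to 6387900) had 451 FPKM in mutant and 222 FPKM in WT, a log2 difference of 1.02, and was the only 1 of the 12 highest past 2-fold. NUAK1 (1 of 2), a kinase related to AMPK and 9023 bases from it, had 10.04 FPKM in mutant and 7.90 FPKM in WT. XLOC_026028 on chromosome 3 (32462140 to 32482907), at 471 FPKM in mutant and 426 FPKM in WT, shares its coordinates with prl, the gene of the pituitary hormone prolactin, which had only 4.34 FPKM in mutant and 2.40 FPKM in WT. XLOC_002159 on chromosome 10 had 616 FPKM in mutant and 536 FPKM in WT. XLOC_025234 on chromosome 3 had 504 FPKM in mutant and 477 FPKM in WT. XLOC_015922 on chromosome 2 had 462 FPKM in mutant and 400 FPKM in WT. Their nearest named loci were MIPEP (2 of 2), nosip and CU693494.2, at 4472, 1688 and 7148 bases. Of the 12 highest loci, 10 had the higher value in the mutant pool, and 8 of the 12 differed by less than 1.2-fold. No count of directions is given for all loci, so nothing is read from the 10.

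Several of the highest unnamed loci sit where a later annotation places a single gene. RefSeq's annotation of the assembly GRCz12tu was used for names only: where no named row of the table lies between a locus and the named neighbour on either side, the RefSeq genes between the same neighbours were counted, leaving out genes whose symbol or synonym the table holds elsewhere. A gene that the table holds elsewhere under an unmatched name would still be counted. Whether a locus is the gene so found was not tested. XLOC_018952 on chromosome 21 (36768467 to 36769606) stood at 716 FPKM in mutant and 707 FPKM in WT between pgrmc1, a haem-binding membrane protein gene, and pgk1, the glycolytic phosphoglycerate kinase; the 1 RefSeq gene there is cox7b, a subunit of cytochrome c oxidase. XLOC_001266 on chromosome 1 (49938598 to 49941277) stood at 544 FPKM in mutant and 558 FPKM in WT between taf5 and pdcd11, where RefSeq has atp5md, a small subunit of the ATP synthase. XLOC_019157 on chromosome 21 (5733721 to 5736384) stood at 473 FPKM in mutant and 426 FPKM in WT between prodha and the ribosomal protein gene rpl35, where RefSeq has uqcr10, a subunit of respiratory complex III. So 3 of the 12 highest loci lie where RefSeq has only a small subunit of the respiratory chain or the ATP synthase, and in each of the 3 the pools differed by less than 1.2-fold.

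Other high loci had a single RefSeq gene of another kind between their neighbours. XLOC_008829 on chromosome 15 (5792294 to 5795384) stood at 362 FPKM in mutant and 323 FPKM in WT between BRWD1 and wrb, where RefSeq has hmgn1a, a nucleosome-binding protein. On chromosome 14, XLOC_007639 and XLOC_007136 share the coordinates 12324841 to 12330078. XLOC_007639 had 345 FPKM in mutant and 312 FPKM in WT, and XLOC_007136 had 113 FPKM in mutant and 98.3 FPKM in WT. RefSeq has tmsb1, a thymosin beta that binds actin monomers, as the 1 gene between zgc:66447 and prps1b there. XLOC_009822 on chromosome 16 (25640733 to 25644380) stood at 58.9 FPKM in mutant and 56.6 FPKM in WT between s100a10b and icn, both genes of S100 calcium-binding proteins, where RefSeq has s100w, another of that family. The highest locus with only a long non-coding RNA between its neighbours was XLOC_033571 on chromosome 7 (23027631 to 23041891), at 41.4 FPKM in mutant and 30.3 FPKM in WT, where RefSeq has si:dkey-85k7.7. Apart from XLOC_008829, these loci were chosen after their values were seen.

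Of 1971 loci apart from a named one, 366 had immediate named neighbours that lie a comparable distance apart in RefSeq. Comparable means 0.67 to 1.5 times the distance in Zv9. Of these 366 loci, 170 (46.5%) had no further RefSeq gene between the neighbours, 128 had exactly 1 and 68 had more. The single gene was protein coding for 73 loci and a long non-coding RNA for 52. Of the loci with a mean of at least 20 FPKM, 2 of 21 had none, against 74 of 147 among loci with a mean of 1 to 2 FPKM. Some loci with larger differences, chosen after their values were seen, also lay where RefSeq has a single gene. XLOC_033635 on chromosome 7 (26220409 to 26224257), with batf2, a basic leucine zipper factor, between its neighbours, had 1.55 FPKM in mutant and 0.468 FPKM in WT, and XLOC_019874 on chromosome 22 (610900 to 614053), with pth4, a parathyroid hormone family peptide, had 0.774 FPKM in mutant and 1.54 FPKM in WT.

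**Figure D1:**
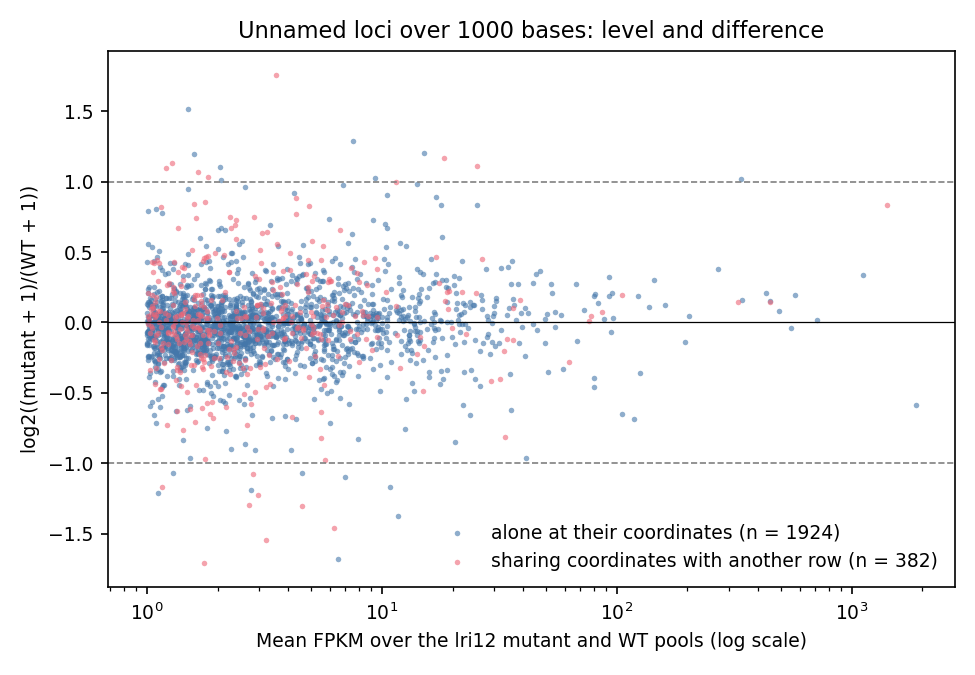
The log2 difference between the lri12 mutant and WT pools (vertical axis) against the mean FPKM of the pools (horizontal axis, log scale) for each of the 2306 unnamed loci; dashed lines mark 2-fold. Most points lie close to 0 at every level, and the loci that share coordinates with another row (n = 382) spread more widely than those alone (n = 1924).

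Differences between the pools were small for most unnamed loci, as the plot of level and difference shows. Of 2306 loci, 15 were past 2-fold higher in mutant than in WT and 16 past 2-fold lower. These are 0.650% and 0.694% of them, where 0.755% and 0.912% of the 23582 loci of any kind with a mean of 1 FPKM or more were past 2-fold higher and lower. Of the 18715 named long loci, 0.315% were past 2-fold higher and 0.470% past 2-fold lower. Since the levels in these same pools chose the loci, nothing is read from these comparisons. The median log2 difference was -0.02 over the unnamed loci, 0.001 over all loci and 0.004 over the named long loci. In all, 1258 unnamed loci were lower and 1048 higher in the mutant. No such count is given for all loci, so nothing is read from this one. The standard deviation over loci was 0.28 for the unnamed ones, 0.26 for the named long ones and 0.34 for all loci. A difference of less than 1.2-fold was held by 77.5% of unnamed loci, 86.8% of named long loci and 82.05% of all loci. At 1.5-fold the counts among the 2306 were 57 higher and 62 lower, where 1.92% and 2.71% of the 23582 loci were past it. A mean over both pools admits a locus that is high in only 1 of them: 167 loci had under 1 FPKM in 1 pool, and 11 of the 31 past 2-fold were among these.

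Loci that share coordinates with another row were past 2-fold at a higher rate than loci alone. The coordinates are those of a whole bundle of overlapping transcripts, so that overlapping rows carry identical positions and their span is the bundle's. Of 382 loci with shared coordinates, 7 were past 2-fold higher and 8 past 2-fold lower, with a standard deviation of 0.41. Of 1924 loci alone at their coordinates, 8 were higher and 8 lower, with a standard deviation of 0.25. Thus 15 of the 31 loci past 2-fold shared their place, and for these the values depend on how the authors' program divided reads between rows.

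**Figure D2:**
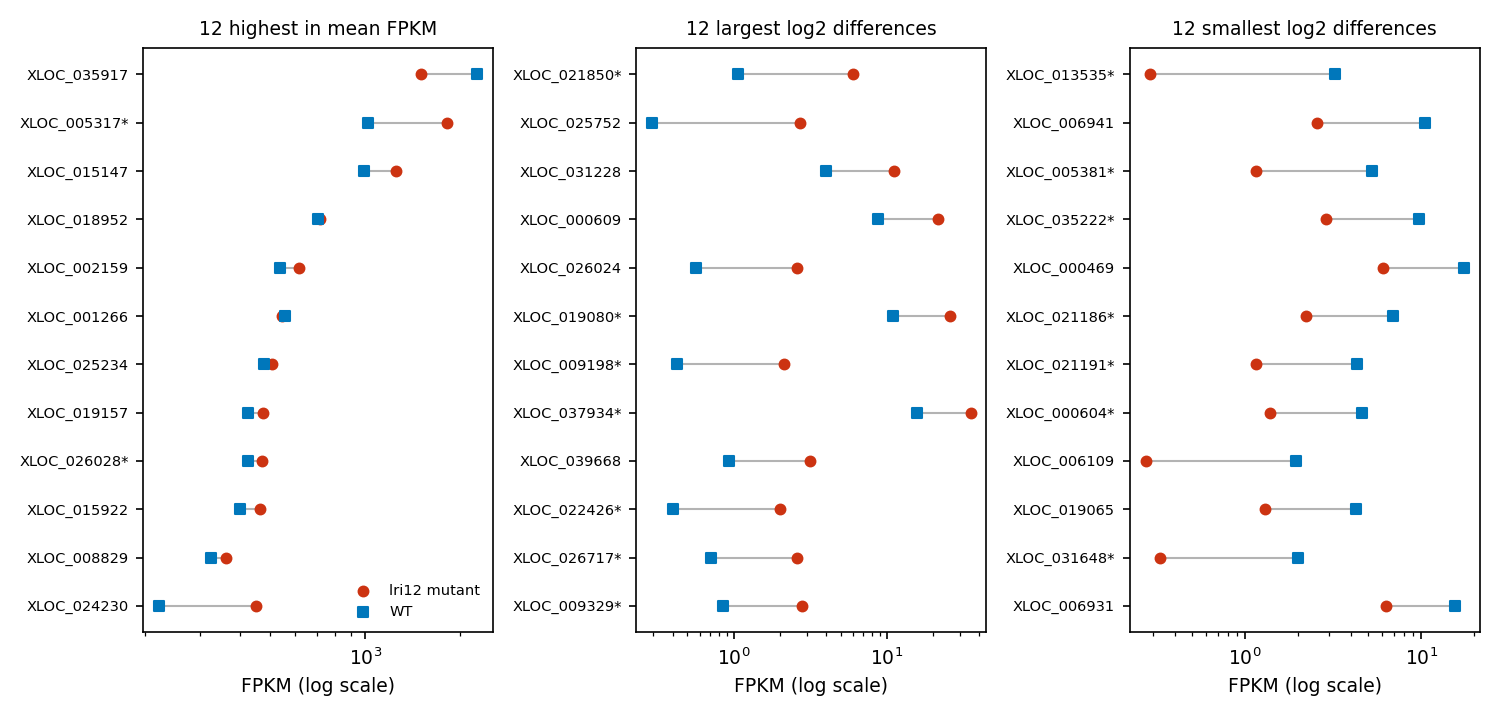
FPKM (log scale) in the lri12 mutant pool (circles) and the WT pool (squares) for the 12 unnamed loci highest in mean level, the 12 with the largest and the 12 with the smallest log2 difference; a grey line joins the 2 pools of a locus, and an asterisk marks loci that share coordinates with another row. Most of the loci with large differences lie under 20 FPKM in both pools, while most of the highest loci have nearly equal values.

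The largest difference upward belonged to XLOC_021850 on chromosome 23 (44907805 to 45218160), at 6.01 FPKM in mutant and 1.07 FPKM in WT, a log2 difference of 1.76; it shares its coordinates with 16 other rows. Among loci alone at their coordinates, XLOC_025752 on chromosome 3 (11669952 to 11681282) had 2.70 FPKM in mutant and 0.295 FPKM in WT, a log2 difference of 1.51. XLOC_031228 on chromosome 5 (65423285 to 65424408) had 11.2 FPKM in mutant and 3.99 FPKM in WT, a log2 difference of 1.29. It begins 119 bases past aspa, which encodes the enzyme aspartoacylase and stood at 2.38 FPKM in mutant and 2.54 FPKM in WT. The neighbour therefore lay near equality while the unnamed locus was 2.44-fold higher with 1 FPKM added, a plain log2 ratio of 1.48. XLOC_000609 on chromosome 1 (54347415 to 54350523) had 21.5 FPKM in mutant and 8.78 FPKM in WT, a 2.30-fold difference on this scale, beside a 5S ribosomal RNA locus that is listed at 0 in both pools. XLOC_019080 on chromosome 21 (167406 to 171077), at 26.0 FPKM in mutant and 10.97 FPKM in WT, lies 589 bases past TBC1D13, a Rab GTPase-activating protein gene, which had 11.3 FPKM in mutant and 11.2 FPKM in WT. XLOC_037934 on chromosome 9 (46649072 to 46658065), at 35.2 FPKM in mutant and 15.8 FPKM in WT, lies 729 bases before zgc:165571, which had 138 FPKM in mutant and 122 FPKM in WT. XLOC_019080 and XLOC_037934 each share their coordinates with 1 other row.

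The remaining 6 of the 12 largest differences ran from 2.05-fold to 2.29-fold on the scale with 1 FPKM added. As plain log2 ratios they ran from 1.71 to 2.32. They lay at low levels, between 2.003 and 3.15 FPKM in mutant and between 0.401 and 0.934 FPKM in WT. XLOC_026024 on chromosome 3, 6340 bases from pih1d1, a chaperone cofactor gene, had 2.61 FPKM in mutant and 0.572 FPKM in WT. XLOC_009198 on chromosome 15, 13472 bases from the neural crest transcription factor gene pax3b, had 2.13 FPKM in mutant and 0.426 FPKM in WT. It lies in a bundle of 5 rows with the same coordinates. XLOC_039668 lies on a scaffold with no named locus, at 3.15 FPKM in mutant and 0.934 FPKM in WT. The other 3, XLOC_022426, XLOC_026717 and XLOC_009329, share their coordinates with named rows, of which those given here were not past 1.5-fold: CABZ01074081.2 at 19.8 FPKM in mutant and 26.4 FPKM in WT, zgc:112148 at 13.4 FPKM in mutant and 13.6 FPKM in WT, and RNF14 (5 of 5) at 2.80 FPKM in mutant and 3.005 FPKM in WT.

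The largest difference downward belonged to XLOC_013535 on chromosome 18 (2380679 to 2445518), at 0.290 FPKM in mutant and 3.21 FPKM in WT, a log2 difference of -1.71, sharing its coordinates with LRCH3 at 2.43 FPKM in mutant and 2.87 FPKM in WT. XLOC_006941 on chromosome 14 (303187 to 307468) was alone at its coordinates, with 2.56 FPKM in mutant and 10.4 FPKM in WT, a log2 difference of -1.68. WDR1, a gene for an actin-disassembly protein 6128 bases before it, had 58.8 FPKM in mutant and 55.5 FPKM in WT. XLOC_005381 on chromosome 12 (50332096 to 50682244) shares a bundle of 22 rows with rgrb, an opsin-family gene of the eye, and had 1.15 FPKM in mutant and 5.26 FPKM in WT. XLOC_035222 on chromosome 7 (76187284 to 76206748) had 2.89 FPKM in mutant and 9.68 FPKM in WT. The row that shares its place, CABZ01081472.1, was also lower, at 2.48 FPKM in mutant and 5.87 FPKM in WT, a log2 difference of -0.98.

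Of the other loci with the smallest values of the difference, XLOC_021191 on chromosome 22, XLOC_000604 on chromosome 1 and XLOC_031648 on chromosome 5 shared their coordinates with other rows, among which the named rows reported here were si:ch211-236g6.1, CABZ01073641.1 and the dopamine receptor gene drd2b. XLOC_021191 had 1.16 FPKM in mutant and 4.30 FPKM in WT, XLOC_000604 had 1.38 FPKM in mutant and 4.58 FPKM in WT, and XLOC_031648 had 0.329 FPKM in mutant and 1.99 FPKM in WT. The receptor drd2b itself stood at 2.14 FPKM in mutant and 1.71 FPKM in WT. XLOC_006109 on chromosome 13 (52837531 to 52839900), alone at its coordinates, had 0.273 FPKM in mutant and 1.95 FPKM in WT.

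One bundle on chromosome 22 (7532637 to 8287405), 754769 bases long, has 29 rows, among them the 3 longest of the unnamed loci and XLOC_021184, which has the same span. It also holds rows named CELA1, the symbol of a pancreatic elastase. XLOC_021186 had 2.22 FPKM in mutant and 6.94 FPKM in WT, a log2 difference of -1.30, and XLOC_021184 had 0.994 FPKM in mutant and 2.05 FPKM in WT. XLOC_020698 had 56.4 FPKM in mutant and 68.7 FPKM in WT, and XLOC_020699 ran the other way, at 21.0 FPKM in mutant and 17.8 FPKM in WT. Of the CELA1 rows there, CELA1 (2 of 8) had 21.6 FPKM in mutant and 35.6 FPKM in WT, CELA1 (7 of 8) had 3.89 FPKM in mutant and 7.85 FPKM in WT, and CELA1 (8 of 8) had 1.18 FPKM in mutant and 2.48 FPKM in WT. The other named rows there with a mean of at least 1 FPKM ran the other way: si:ch211-59h6.1 had 4.63 FPKM in mutant and 3.76 FPKM in WT, sc:d217 had 4.77 FPKM in mutant and 3.74 FPKM in WT, and the row that joins CU571257.1 with other symbols had 2.16 FPKM in mutant and 1.79 FPKM in WT. The summed level of the 4 exocrine pancreas markers found among the 6 listed was 965 FPKM in mutant and 2747 FPKM in WT. Its part in the difference of XLOC_021186 was not tested.

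Of the unnamed loci, 7 had a q-value under 0.05 in the authors' deposited table, 1 higher and 6 lower in the mutant, while 0.115% and 0.233% of the 31308 loci marked as tested there were higher and lower with such a q-value. Those q-values come from 1 pool against 1 pool. All 7 loci were alone at their coordinates, and their levels ran from 1.30 to 6.31 FPKM in mutant and from 1.45 to 17.4 FPKM in WT. The 1 that was higher was XLOC_007132 on chromosome 14 (11629450 to 11636390), at 3.78 FPKM in mutant and 1.45 FPKM in WT, with a q-value of 0.0172 in the authors' deposited table. It begins 210 bases past irg1l, related to the gene of the itaconate-making enzyme of activated macrophages, which had 11.8 FPKM in mutant and 4.90 FPKM in WT.

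Of the 6 that were lower, 2 lie next to each other near the start of chromosome 14. XLOC_006931 (106589 to 112104) had 6.31 FPKM in mutant and 15.4 FPKM in WT, a log2 difference of -1.17. XLOC_006932 (113485 to 116576) had 4.09 FPKM in mutant and 9.91 FPKM in WT, a log2 difference of -1.10. Both have a q-value of 0.0172 in the authors' deposited table. The named locus after them, DRD5 (1 of 2), a dopamine receptor gene 3251 bases past XLOC_006932, had 2.95 FPKM in mutant and 2.16 FPKM in WT and so did not share their direction. With XLOC_006941, 3 of the 9 long unnamed loci in the first 330 kb of chromosome 14 were past 2-fold lower. A short unnamed locus there (311735 to 311904), at 32.2 FPKM in mutant and 75.5 FPKM in WT, was past 2-fold lower too. It is 170 bases long, less than the 183 and 181 bases taken off spans in mutant and WT to recover fragments below. The fragments behind its level were thus not recoverable by that rule, and nothing is read from it. With it included, 4 of the 17 unnamed loci of any length averaging 1 FPKM or more in this stretch were past 2-fold lower. The 17 named loci with a mean of at least 1 FPKM in the same stretch lay between log2 differences of -0.18 and 0.32. This stretch was singled out after its values were seen.

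XLOC_000469 on chromosome 1 (44323424 to 44325668) had 6.09 FPKM in mutant and 17.4 FPKM in WT, a log2 difference of -1.38, with a q-value of 0.0431 in the authors' deposited table. Its nearest named locus, si:dkey-22i16.7, was also lower, at 24.9 FPKM in mutant and 40.8 FPKM in WT. RefSeq has a single gene, the long non-coding RNA LOC110439846, between scpp6, a gene of the secretory calcium-binding phosphoproteins of bone and tooth matrix, and si:dkey-22i16.7. A second unnamed locus in the same interval, XLOC_001185 (44319714 to 44322293), ran the other way, at 1.29 FPKM in mutant and 0.705 FPKM in WT. XLOC_019065 on chromosome 21 (44394488 to 44396490) had 1.30 FPKM in mutant and 4.23 FPKM in WT, 2680 bases before h2afy, a histone macroH2A gene, at 10.6 FPKM in mutant and 10.2 FPKM in WT. Its q-value in the authors' deposited table is 0.0431.

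XLOC_011962 on chromosome 17 (25491721 to 25511183) had 2.60 FPKM in mutant and 6.55 FPKM in WT, a log2 difference of -1.07. It begins 951 bases past ppp1cb, the gene of a catalytic subunit of protein phosphatase 1, which had 106 FPKM in mutant and 107 FPKM in WT, and RefSeq has no further gene between ppp1cb and kcnh1. XLOC_010971 on chromosome 16 (23678473 to 23680772) had 1.70 FPKM in mutant and 4.05 FPKM in WT, a log2 difference of -0.91. It begins 487 bases past DDR1, a collagen receptor kinase gene, which had 7.55 FPKM in mutant and 7.65 FPKM in WT, and RefSeq has the zinc finger gene znf384b between its neighbours. Both loci have a q-value of 0.0172 in the authors' deposited table. In 5 of these 7 loci, XLOC_019065, XLOC_011962, XLOC_010971, XLOC_006931 and XLOC_006932, the named neighbour thus lay near equality or on the other side.

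**Figure D3:**
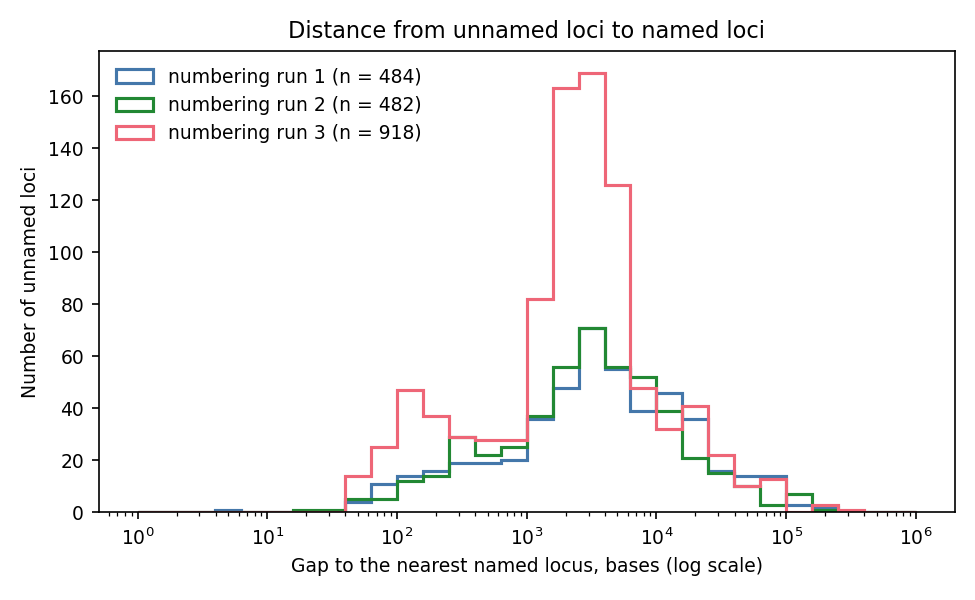
Number of unnamed loci by the gap in bases to the nearest named locus (log scale), for the 3 runs of locus numbers described in the text; loci that share their coordinates with a named row have no gap and are left out. In each run more loci have a gap of 1001 to 5000 bases than of any other class, and run 3 has an additional peak under 200 bases.

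Most unnamed loci were listed at or within 5 kb of a named one. Of 2259 on a chromosome or scaffold with any named locus, 288 shared the coordinates of a named row and 1639 (72.6%) lay at or within 5 kb of one. The 288 carry the coordinates of a bundle, with a median span of 96001 bases, so their own distance to the named gene is not known. The median gap of those apart was 2883 bases and the longest 325497 bases. No such share is given for named loci, so closeness is not read as a trait of the unnamed ones. On the 25 chromosomes the table's locus numbers climb from the first base to the last exactly 3 times. What separates these runs is not given in the sources used here. Run 1 holds 15059 loci with a symbol and 847 without, run 2 holds 15289 with and 839 without, and run 3 holds 6239 without and only 2 with a symbol. Of the unnamed long loci, 530 belong to run 1, 528 to run 2 and 1111 to run 3, and another 137 lie on unplaced scaffolds. The runs were found after the values were seen.

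**Figure D4:**
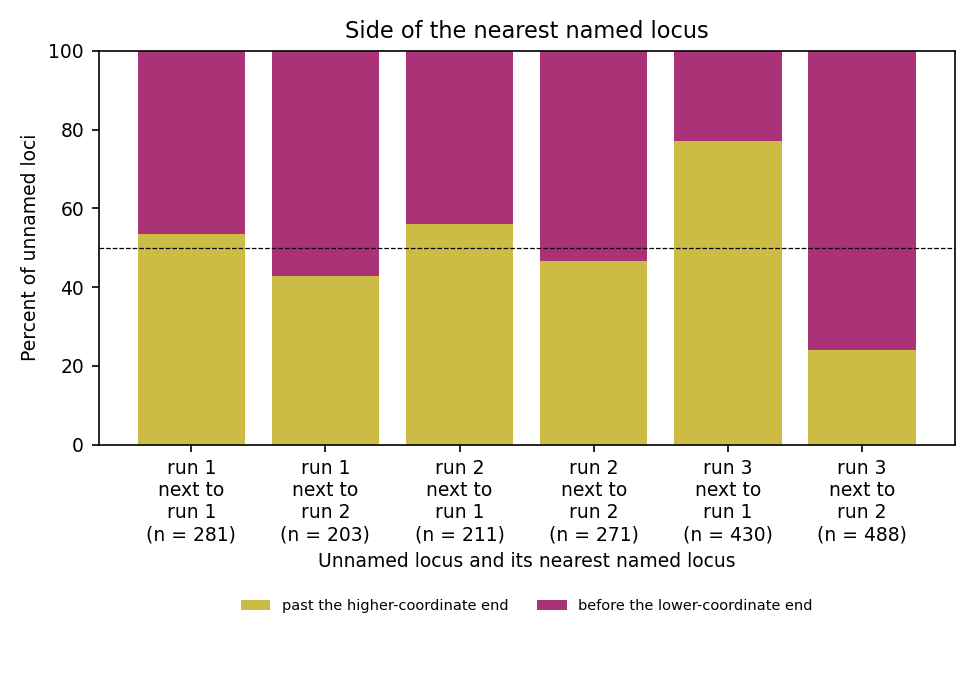
Percent of unnamed loci, apart from named ones, that lie past the higher-coordinate end (lower part of each bar) or before the lower-coordinate end (upper part) of their nearest named locus, by the run of each; the dashed line marks equal parts. Loci of run 3 lie past the end of run 1 neighbours in 76.98% of cases and before the start of run 2 neighbours in 76.0%, while loci of runs 1 and 2 fall on both sides more evenly.

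Run 3 loci kept to 1 side of their neighbours. Of 430 whose nearest named locus is of run 1, 331 (76.98%) lay past its higher-coordinate end. Of 488 whose nearest named locus is of run 2, 371 (76.0%) lay before its lower-coordinate end. Within 5 kb the counts were 269 of 330 (81.5%) and 309 of 372 (83.1%). Unnamed loci of runs 1 and 2 lay past the end in 42.9% to 55.9% of cases. Run 3 loci were also closer, with 80.6% at or within 5 kb of a named locus, against 62.8% in run 1 and 67.1% in run 2. These shares include loci that share coordinates with a named row. For loci apart from a named one, the median gap was 2570 bases in run 3, 3482 bases in run 1 and 3104 bases in run 2. Their level was lower too, with a median of 1.87 FPKM against 3.80 FPKM in run 1 and 3.98 FPKM in run 2. The median log2 difference was -0.04 in run 3, against 0.01 in run 1 and -0.01 in run 2. Of run 3 loci between matched neighbours, 131 of 189 (69.3%) had no further RefSeq gene there, against 39 of 177 (22.03%) in runs 1 and 2. Since run 3 loci also had lower levels, the RefSeq shares by level given above are mixed with run. They were not split by run.

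Each unnamed locus was also set beside its nearest named locus. Over 1972 unnamed loci whose nearest named locus had a mean of at least 1 FPKM, the median log2 difference of the neighbours was -0.01. Some neighbours serve several unnamed loci, and 1530 of them are distinct. The Pearson correlation between a locus and its neighbour was 0.11 for the 281 that share coordinates and 0.0006 for 167 with a gap of up to 200 bases. It was 0.17 for 239 at 201 to 1000 bases and 0.09 for 813 at 1001 to 5000 bases. Spearman's rho over the same classes was 0.10, 0.20, 0.21 and 0.17. For 337 at 5001 to 20000 bases the Pearson correlation was -0.03 and rho 0.05, and for 135 farther away -0.003 and 0.02. These are descriptions across loci of the same 2 libraries. Of 26 unnamed loci past 2-fold with such a neighbour, 0 had a neighbour past 2-fold and 3 a neighbour past 1.5-fold in the same direction. Conversely, 12 unnamed loci lay next to a named locus past 2-fold, and 1 of them, XLOC_007132 beside irg1l, was past 1.5-fold in the same direction. The unnamed locus had the higher level in 16.7% of pairs that share coordinates and in 26.0% of pairs 1001 to 5000 bases apart. Where several named rows were equally near, the one highest in mean FPKM was taken as the neighbour. Loci that share coordinates often had several such rows, so these shares cannot be compared with each other.

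For run 3 loci alone at their coordinates the FPKM values could be turned back into fragments, which gives the depth behind them. FPKM multiplied by the span, less 183 bases in mutant and 181 bases in WT, fell within 0.1 of a whole multiple of 1 fragment in 99.0% of 2028 run 3 loci in mutant and 99.7% in WT. The whole span therefore served as the transcript length. On 1 kb of such length 1 fragment was worth 0.0170 FPKM in mutant and 0.0188 FPKM in WT, so that the library size used for scaling was 1.11 times as large in mutant. Whether this size equals the number of fragments sequenced is not given in the sources used here. For 911 loci of runs 1 and 2 alone at their coordinates, values fell within 0.1 of a whole multiple for only 20.2% in mutant and 21.4% in WT. A tolerance of 0.1 on either side admits about that share of arbitrary values. The whole-span rule was thus not seen in these loci, and no fragments are given for them. Of the 891 long run 3 loci alone at their coordinates, 871 gave whole fragments in both pools, from 41 to 2108 in mutant with a median of 186, and from 41 to 1828 in WT with a median of 174.

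**Figure D5:**
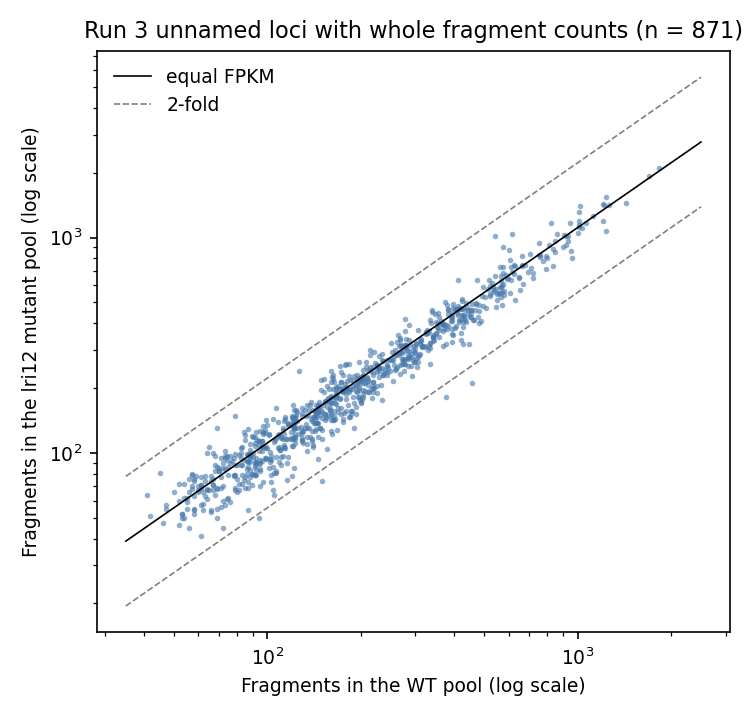
Fragments in the lri12 mutant pool against fragments in the WT pool (both log scales) for the 871 run 3 loci with whole fragment counts; the solid line marks equal FPKM and the dashed lines a 2-fold ratio. Most points lie near the solid line; 0 loci lie past the upper 2-fold line and 4 past the lower one.

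Among these 871 loci the plain ratio of FPKM was at least 2-fold higher in mutant for 0 and at least 2-fold lower for 4. No share over all loci is given on the plain ratio, so nothing is read from these counts. On the scale with 1 FPKM added, 0 of the 891 were past 2-fold in either direction. Of the 23582 loci of any kind with a mean of 1 FPKM or more, 0.755% were past 2-fold higher and 0.912% lower on that scale. All 8 run 3 loci past 2-fold were among those that share coordinates. Beside the error of counting alone, which separate pools of larvae would exceed in any case, loci with 100 to 200 fragments over both pools had a standard deviation of the log2 ratio of 0.30, where counting alone would give 0.24. Loci with 200 to 500 fragments had 0.24 against 0.17 from counting, and those with more than 500 had 0.21 against 0.10. How much of this spread belongs to genotype and how much to the sampling of larvae cannot be told apart with 1 pool per genotype.

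The 4 loci past 2-fold lower and some of the highest were added after the values were seen, and their intervals are exact Clopper-Pearson 95% intervals that cover counting error only. XLOC_010971, the locus past DDR1, had 212 fragments in mutant and 456 in WT, a log2 ratio of -1.26 with an interval from -1.50 to -1.02. XLOC_029298, on chromosome 4 from 36290681 to 36295810, had 181 fragments in mutant and 378 in WT, a log2 ratio of -1.21 with an interval from -1.48 to -0.95. XLOC_033139 on chromosome 6 (37328978 to 37330955), 7075 bases before the cystathionase-like gene cthl, had 74 fragments in mutant and 150 in WT, a log2 ratio of -1.17 with an interval from -1.59 to -0.76. XLOC_002873 on chromosome 10 (15080975 to 15082325), 3515 bases past the claudin gene CLDN23, had 50 fragments in mutant and 94 in WT, a log2 ratio of -1.06 with an interval from -1.59 to -0.55. At the other end, XLOC_008113 on chromosome 14 (20158070 to 20159585), 17473 bases past polr1a, the gene of the largest subunit of RNA polymerase I, had 1021 fragments in mutant and 541 in WT, a log2 ratio of 0.77 with an interval from 0.61 to 0.92. XLOC_008100 on the same chromosome (14934882 to 14937538), 2829 bases before smtnl1, had 239 fragments in mutant and 127 in WT, a log2 ratio of 0.76 with an interval from 0.44 to 1.08. XLOC_036734 on chromosome 8 (38932138 to 38933545) had 1043 fragments in mutant and 614 in WT, a log2 ratio of 0.61 with an interval from 0.47 to 0.76. The locus with the most fragments, XLOC_026586 on chromosome 3 (26673876 to 26675085), had 2108 in mutant and 1828 in WT, a log2 ratio of 0.06 whose interval from -0.03 to 0.15 includes equality.

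Unnamed long loci were found on every chromosome. Per 100 named loci of any level and span, they ran from 3.75 on chromosome 4 to 12.3 on chromosome 15. Chromosome 4 held 86 of them beside 2295 named loci, the most named loci of any chromosome. Chromosome 15 held 121 beside 982 named loci. On chromosome 1, 56 of 74 were lower in mutant, with a median log2 difference of -0.12 against -0.02 for the named loci there. On chromosome 19, 47 of 67 were lower, with a median of -0.10 against -0.03 for its named loci. These 2 medians lay furthest from 0 among the 25 chromosomes, which is why the 2 chromosomes are named, and both amount to less than 1.1-fold. No count of lower loci is given for the named loci there, so nothing is read from the 2 counts. Past 30 Mb of chromosome 4, a part rich in repeats, the 41 unnamed long loci had a median log2 difference of -0.0009, a highest mean of 22.1 FPKM and 0 past 2-fold.

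By the lists of neighbouring genes, 0 unnamed loci lay nearest to a listed tissue marker, AP-1 factor or Hox gene, 1 lay nearest to a circadian clock gene, with a log2 difference of -0.04, and 1 to a small nucleolar RNA. The 47 nearest to a ribosomal RNA locus had a median log2 difference of -0.005, with XLOC_000609 as the 1 past 2-fold. MicroRNAs are cut from longer primary transcripts, which in an annotation of hairpins alone would carry no symbol. Of the 9 unnamed loci nearest to a microRNA, 3 lie in a row before dre-mir-29b-1 on chromosome 6: XLOC_032255 (47364335 to 47398526) at 28.1 FPKM in mutant and 25.1 FPKM in WT, XLOC_033170 (47398712 to 47399788) at 16.5 FPKM in mutant and 12.7 FPKM in WT, and XLOC_033171 (47399909 to 47401933) at 6.71 FPKM in mutant and 5.73 FPKM in WT. All 3 were somewhat higher in mutant, with log2 differences of 0.16, 0.36 and 0.20. XLOC_016125 on chromosome 2 (18605329 to 18634538), before the neuronal dre-mir-137-1, had 13.5 FPKM in mutant and 16.4 FPKM in WT, and XLOC_012391 on chromosome 17 (27259631 to 27260723), 458 bases before the neuronal dre-mir-124-4, had 2.20 FPKM in mutant and 2.77 FPKM in WT. Over all 9 the differences ran from -0.28 to 0.36, and whether any of these loci is a microRNA precursor was not tested.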

How the data were processed

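One deposited table of 40114 loci was used, with 1 pool of 20 larvae per genotype. Per the file headers it has the layout of Cuffdiff output. The deposited level of each pool was taken as FPKM, a unit no label states, and each deposited p-value or q-value is the authors'. CASAVA, Bowtie and the build Zv9 are named in the submitters' processing notes. Samples were grouped by their genotype labels; 1 title spells the line lir12. How strand and multi-mapped reads were treated, and which annotation was used, is not given in the sources used here. Starts were turned into 1-based positions.

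Loci were compared with a pseudocount of 1 FPKM and no test, and counted past 2-fold. Named loci are the 12 highest in mean, the 12 largest and 12 smallest differences, those with a q-value under 0.05, the 3 longest and those at the limits, each with its nearest named locus; others are said to be chosen after seeing values. The loci and lists were chosen with earlier results of these data known. Alternatives were pseudocounts of 0.1 and 5 FPKM, other limits on mean, span and gap, only loci marked as tested, a shift to a median of 0 and no clone-based symbols. Loci alone at their coordinates were added after seeing the data. RefSeq GRCz12tu (names only) matched 15869 of 31605 named rows by symbol or synonym, some only after ignoring case. No sequence was used here. Fragment recovery and gaps were tested on simulated data. Python 3.11.15, numpy 2.4.6, pandas 2.3.3, SciPy 1.17.1 and matplotlib 3.10.9 were used.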

Additional observations from a re-analysis of the deposited data

How the results depend on the processing

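No paired analysis was possible because each genotype is 1 pool. Counts past 2-fold depended on how low values are treated. The 15 higher and 16 lower unnamed loci became 33 and 37 with a pseudocount of 0.1 FPKM, and 1 and 2 with 5 FPKM. A raised limit leaves fewer loci than the 2306, so its counts cannot be set directly beside these. With the mean raised to 5 FPKM, 6 of the 624 loci left were higher and 5 lower. Among the 912 with a span over 5000 bases 10 were higher and 10 lower. Among the 1924 alone at their coordinates, an alternative added after seeing the data, 8 were higher and 8 lower. The 1639 of 2306 loci at or within 5 kb of a named locus became 724 with a gap of 1 kb. In the smaller sets they were 401 of the 624 with the mean raised to 5 FPKM and 636 of the 912 with a span over 5000 bases. The 10 higher with a span over 5000 bases and the values not given here, 26 in all, included every median. They moved by at most 1.5 times for counts and by less than 0.1 for medians. Some of them could not move: all 2306 loci were marked as tested, so keeping only such loci changed nothing. Of 57 unnamed loci followed one by one, 4 went past 2-fold with a pseudocount of 0.1 FPKM and 24 fell inside 2-fold with a pseudocount of 5 FPKM. With the shift, all 57 stayed on the same side of the 2-fold limit, but the shift was only 0.001 in log2 and could hardly move them. A pseudocount cannot reverse a difference, so the direction of these loci was not probed by either pseudocount. Depth per locus is known only for run 3 loci alone at their coordinates.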
